A study of Rattus norvegicus with 65 samples.

Results

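The messenger RNA of 9 genes of myelin and of the oligodendrocyte lineage, Mbp, Mobp, Cnp, Mal, Mag, Mog, Olig2, Pdgfra and Cspg4, was followed through the hypothalami of 65 rats. They were picked out by name from 38513 genes in the count table, and all 9 were among the 21871 genes that passed a filter on low counts. The animals were male Wistar rats, aged 9 to 10 weeks at the start and made obese by 6 weeks of high-fat diet, with 1 RNA sequencing library for each animal. Bypass libraries came from 14 animals with Roux-en-Y gastric bypass (RYGB), and Sham libraries from 11 animals with a sham operation. The 7 BWM animals, also sham-operated, had food restricted so that their weight followed that of RYGB-treated animals, while the other obese groups could choose between high-fat and low-fat food. The hormone groups were 5 animals on daily subcutaneous liraglutide (Lira, 0.4 mg/kg/day), 4 on PYY3-36 from an osmotic minipump (PYY, 0.1 mg/kg/day) and 10 on the combination (PYY_Lira). Their 8 controls received saline (Saline). The 6 Lean animals were taken to be those kept on low-fat food alone. The hypothalamus was collected 4 weeks into each intervention, from animals fasted for 10 h. The libraries came from 2 experimental periods, batch A with 37 animals and batch B with 28. Both batches held animals with RYGB (11 in A, 3 in B), sham operation (5 and 6), saline (3 and 5) and both hormones (5 and 5). BWM and lean animals were in batch A alone, and liraglutide- and PYY3-36-treated animals in batch B alone.

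Oligodendrocytes wrap the axons of the brain in myelin, a stack of compacted membrane that insulates the axon and speeds conduction. They arise from precursor cells that stay in the adult brain, carry the growth factor receptor encoded by Pdgfra and the proteoglycan encoded by Cspg4 (NG2), and divide before they differentiate. The transcription factor Olig2 is needed through the lineage, in precursors and in myelinating cells. In the hypothalamus, precursor cells are known to be dense in the median eminence, and fibre tracts such as the optic chiasm and the fornix lie inside or next to the tissue. Pdgfra is also made by fibroblasts of the meninges, the membranes around the brain, and Cspg4 by pericytes, the wall cells of capillaries.

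The depth was between 20041010 and 36539941 counts per library, and levels of the members are given as TMM-scaled CPM, the count divided by the library total after scaling. Marker levels are CPM without that scaling, except where stated. Of 9 peptide genes that mark hypothalamic neurons (Pomc, Agrp, Npy, Oxt, Avp, Hcrt, Pmch, Crh and Trh), the summed level was under 200 CPM in 12 of the 65 libraries, which reached at most 169 CPM, while the lowest of the other libraries had 446 CPM and the highest 7570. These 12 libraries went against their tissue label. They were 3 of 11 sham-treated (animals 2, 6 and 10), 2 of 6 lean (2 and 5), 2 of 8 saline-treated (3 and 4), 2 of 5 liraglutide-treated (3 and 4), 1 of 4 PYY3-36-treated (2), 1 of 7 BWM (1), 1 of 10 PYY3-36 + liraglutide-treated (8) and 0 of 14 RYGB-treated animals. Markers of the striatum summed to 3744 CPM in BWM animal 1 and to 3372 CPM in sham animal 10, against a median of 278 CPM over all libraries. BWM animal 5 had 77651 CPM of anterior pituitary hormone genes. Counts of changed genes are therefore, for some comparisons, also given without the 12 libraries, a threshold that was set after the marker sums had been seen.

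The start regions of the members show how unlike in sequence genes can be whose levels moved together. RefSeq windows on GRCr8 (250 bases before to 50 bases after the annotated start, 300 bases) were found for 8 of the 9 members. The letters ACAAAG, the core of the sites bound by SOX and TCF proteins, were searched on both strands, where they read CTTTGT, after the sequences had been seen. They were present in 18.8% of all 33469 windows. The windows of Mobp, Mag, Cnp and Mal are shown, 5′ to 3′ on the strand of the gene, with the matches in capitals.
Mobp, chr8:128746982-128747281, plus strand: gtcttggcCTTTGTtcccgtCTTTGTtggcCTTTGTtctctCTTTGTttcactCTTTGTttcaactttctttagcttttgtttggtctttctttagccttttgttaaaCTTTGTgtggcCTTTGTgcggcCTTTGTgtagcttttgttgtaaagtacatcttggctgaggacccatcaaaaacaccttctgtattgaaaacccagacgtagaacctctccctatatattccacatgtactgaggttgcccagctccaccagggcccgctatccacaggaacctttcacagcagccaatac
Mag, chr1:95290995-95291294, minus strand: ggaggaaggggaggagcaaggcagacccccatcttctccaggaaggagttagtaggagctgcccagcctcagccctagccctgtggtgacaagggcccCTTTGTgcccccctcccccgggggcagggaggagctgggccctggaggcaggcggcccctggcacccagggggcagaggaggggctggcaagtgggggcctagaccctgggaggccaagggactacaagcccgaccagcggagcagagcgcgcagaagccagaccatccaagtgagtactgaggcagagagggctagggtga
Cnp, chr10:86011254-86011553, plus strand: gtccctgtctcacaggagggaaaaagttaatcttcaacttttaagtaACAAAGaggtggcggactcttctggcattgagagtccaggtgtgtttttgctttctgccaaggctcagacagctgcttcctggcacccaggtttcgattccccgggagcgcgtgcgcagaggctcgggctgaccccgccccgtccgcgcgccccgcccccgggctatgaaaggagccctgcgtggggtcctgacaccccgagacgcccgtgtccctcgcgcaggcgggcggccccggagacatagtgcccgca
Mal, chr3:135341374-135341673, minus strand: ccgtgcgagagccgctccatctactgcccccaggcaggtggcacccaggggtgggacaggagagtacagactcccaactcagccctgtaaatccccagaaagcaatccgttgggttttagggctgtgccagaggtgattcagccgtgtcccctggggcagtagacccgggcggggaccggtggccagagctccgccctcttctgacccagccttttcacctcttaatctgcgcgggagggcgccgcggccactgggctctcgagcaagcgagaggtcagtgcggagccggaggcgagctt
The Mobp window held 8 copies, a number that 3 of the 33469 windows (0.00896%) reached, and most copies lay in a run of T-rich repeats. The windows of Mag and Cnp held 1 copy each, the 2 windows listed for Mbp held 0 and 1, and those of Mal, Olig2, Pdgfra and Cspg4 held 0. The GC content was 44.3% in Mobp, 67.7% in Mag and 63.3% in Cnp, with Mal between these last values and a median of 51.7% over all windows. Cnp and Mal held 24 and 19 CG dinucleotides, Mobp and Mag 4 and 6. A match of letters is a description of the window and says nothing about binding in these animals.

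The members covered a wide range of levels. Mbp (chr18:79326738-79437310 on Rnor_6.0), the gene of myelin basic protein that holds the inner faces of the membrane together, had a median of 9066 CPM and took between 0.342% and 2.78% of a library. Mobp (chr8:128824420-128854492), which encodes another small basic protein of compact myelin, had a median of 2890 CPM. Cnp (chr10:88490798-88497357), which encodes the enzyme CNPase of the cytoplasmic channels in myelin, had 904 CPM. The adhesion protein of the innermost membrane facing the axon, Mag (chr1:89345325-89360905), had 428 CPM, and Mal (chr3:120209647-120233655), which encodes a protein of membrane sorting, had 422 CPM. Mog (chr20:2003871-2014284), whose protein lies on the outer surface of the sheath, had 225 CPM. Among the lineage members, Pdgfra (chr14:35527926-35581130) had 80.1 CPM, Olig2 (chr11:31389514-31392890) 45.8 CPM and Cspg4 (chr8:61532465-61567510) 32.6 CPM. Per kilobase of exon, the order of the median levels was Mbp (2682), Mobp (496), Cnp (360), Mal (186), Mag (107), Mog (57.7), Olig2 (17.3), Pdgfra (11.2) and Cspg4 (4.03 CPM per kb). Mag and Mal, close in CPM, therefore differed in level per length, and Olig2 stood above Pdgfra on this scale and below it in CPM. Reads with several places had been counted as fractions, and the counts of Mobp were not whole in 100% of the libraries and those of Pdgfra in 53.8%, so these genes shared reads with other places or genes.

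Levels of the myelin transcripts ranged widely over the 65 libraries. The highest Mbp level was 9.13-fold above the lowest, from 3178 CPM in RYGB animal 9 to 29025 CPM in PYY3-36 animal 2. Within a group and batch, the range of Mbp was between 1.28-fold (saline, batch A) and 8.22-fold (RYGB, batch A). Over all libraries, the range was 7.95-fold for Mobp, 6.97-fold for Cnp, 6.56-fold for Mog, 5.57-fold for Mal and 5.34-fold for Mag. It was 4.32-fold for Pdgfra, 3.19-fold for Olig2 and 2.44-fold for Cspg4. RYGB animal 9 had the lowest level of Mbp, Mobp, Mag and Mog, and PYY3-36 animal 2 the highest of Mbp, Cnp, Mal, Mag, Mog and Olig2. After subtraction of the mean of each group and batch, the SD on the log2 scale was 0.64 for Mbp and for Mobp, 0.49 for Mog, 0.47 for Mal, 0.44 for Mag and 0.42 for Cnp, against a median of 0.26 over all 21871 genes. It was 0.37 for Pdgfra, 0.33 for Olig2 and 0.28 for Cspg4. Among the 6856 genes at least as abundant as Cspg4, 4.17% had a larger SD than Mbp and 33.8% a larger SD than Cspg4.

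**Figure D1:**
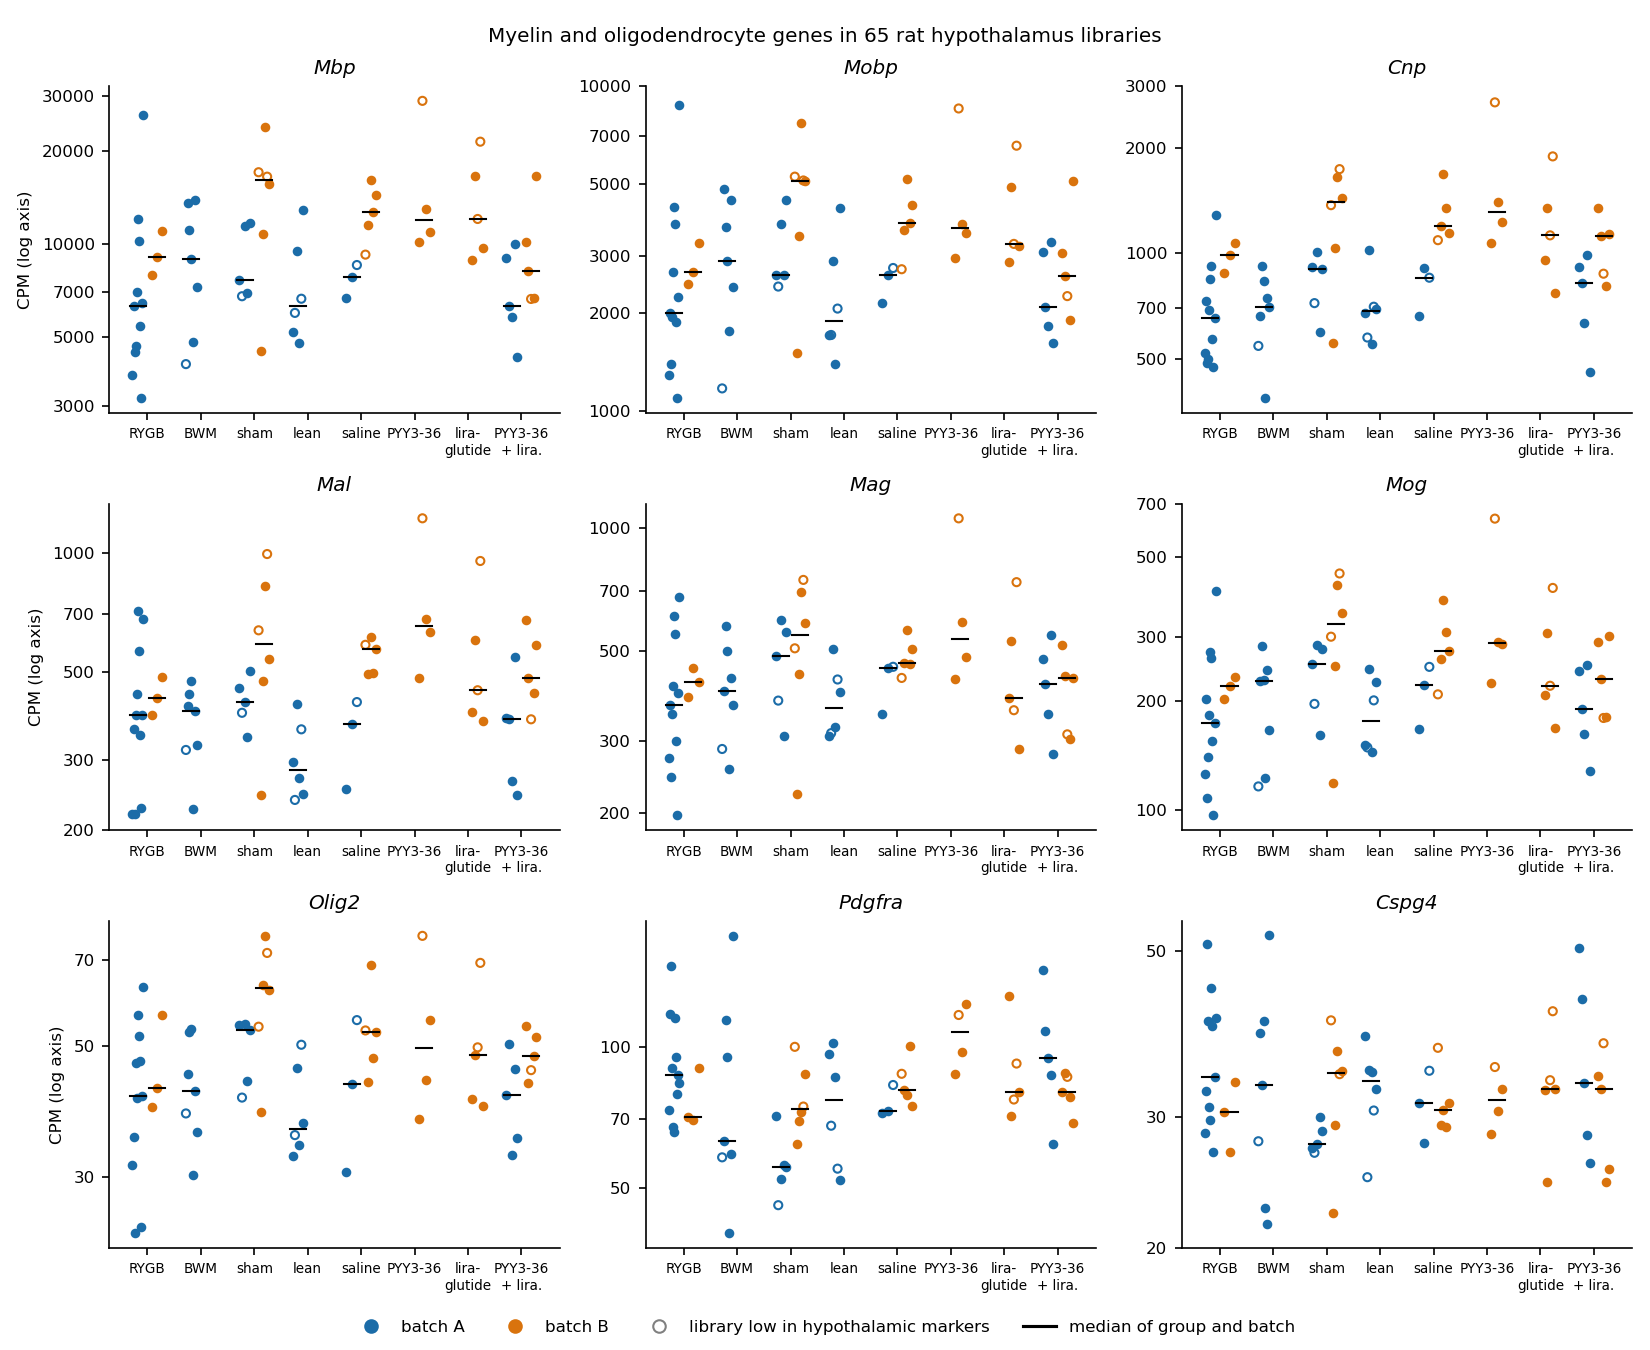
Level of each of the 9 genes in the 65 animals, in TMM-scaled CPM on a log axis, by group and batch, where points are animals, open points the 12 libraries low in hypothalamic markers and bars the median of a group in a batch. Mbp runs from 3178 CPM in RYGB animal 9 to 29025 CPM in PYY3-36 animal 2. Over both batches, the groups compared with each other overlap in every panel. For Cnp and Mal, the PYY3-36-treated animals, all in batch B, lie above all BWM and lean animals, all in batch A.

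The myelin members rose and fell together from animal to animal. Across the 37 animals of batch A, the correlation of log2 levels with Mbp was r = 0.98 for Mobp, 0.93 for Mog, 0.86 for Mag, 0.81 for Cnp and 0.73 for Mal. Across the 28 animals of batch B it was 0.99, 0.93, 0.88, 0.90 and 0.86 in the same order. Olig2 followed with r = 0.70 in batch A and 0.75 in batch B. Spearman's rho for these 6 genes ran from 0.67 (Olig2) to 0.98 (Mobp) in batch A and from 0.70 to 0.98 in batch B. All 12 relations passed a two-sided permutation test with 100000 resamples after adjustment over 16 relations, with an adjusted p of 1.45e-05, the smallest that the permutations and the adjustment gave here, for all but Olig2 in batch B (2.67e-05). Without the animals farthest from the Mbp median, RYGB animals 11 and 9 in batch A and PYY3-36 animal 2 and sham animal 7 in batch B, r was still 0.98 and 0.99 for Mobp, 0.90 and 0.88 for Mog, 0.82 and 0.80 for Mag, 0.75 and 0.84 for Cnp, 0.66 and 0.77 for Mal and 0.61 and 0.69 for Olig2. With the group means subtracted, r of these 6 genes lay between 0.69 (Olig2, batch A) and 0.99 (Mobp). All of these values are levels of the same libraries, so they share depth and dissection.

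Pdgfra and Cspg4 did not follow Mbp in this way. For Pdgfra, r with Mbp was -0.06 in batch A (permutation p = 0.738) and 0.21 in batch B (permutation p = 0.278). Cspg4 had r = 0.10 in batch A (permutation p = 0.555). Its r of 0.42 in batch B passed the permutation test (adjusted p = 0.0323), but rho was 0.31 (adjusted p = 0.132). This r was 0.23 without PYY3-36 animal 2 and sham animal 7. With the group means subtracted it was 0.40 (permutation test, adjusted p = 0.0449). Without the 12 libraries low in hypothalamic markers it was 0.42 (permutation test, adjusted p = 0.0718). The pair had r = 0.80 with each other in batch A and 0.48 in batch B, given as a description.

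**Figure D2:**
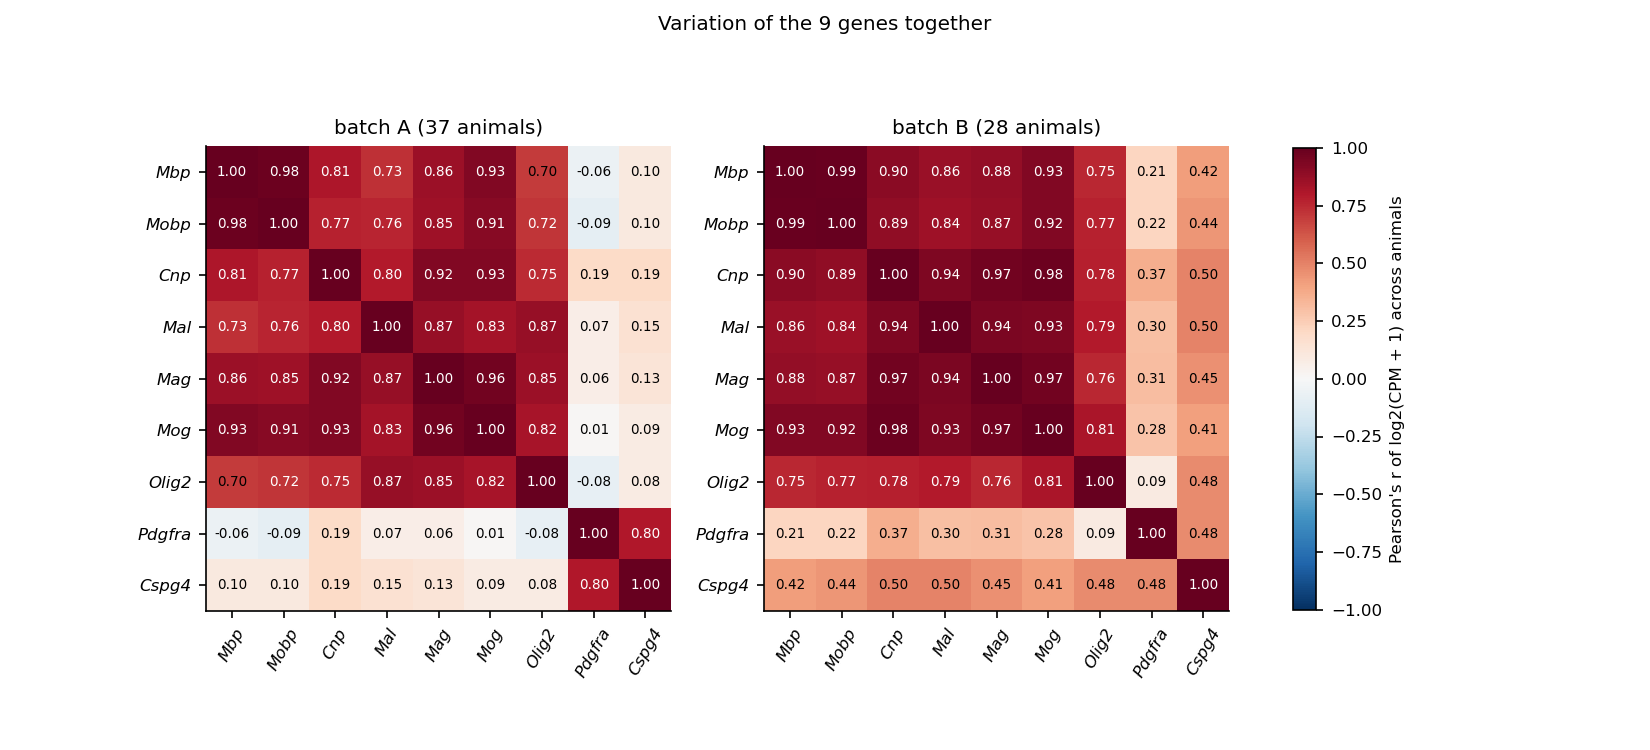
Pearson correlation of log2 levels between each pair of the 9 genes, across the 37 animals of batch A and the 28 animals of batch B, where colour and printed value give r. The 6 myelin genes and Olig2 form a block with r from 0.70 to 0.98 in batch A and from 0.75 to 0.99 in batch B. Pdgfra and Cspg4 have lower r with the genes of this block. For Cspg4, r with the 6 myelin genes is 0.09 to 0.19 in batch A. In batch B it is 0.41 to 0.50, near the r of 0.48 between Cspg4 and Pdgfra.

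The size of the shared movement differed between the genes. Per log2 unit of Mbp, Mobp moved by 1.01 log2 units in batch A and 0.97 in batch B, and Mog by 0.68 and 0.78. The slopes were 0.56 and 0.68 for Mag, 0.49 and 0.69 for Cnp, 0.51 and 0.70 for Mal and 0.36 and 0.38 for Olig2. The ratio of Mbp to Mobp accordingly ran only from 2.40 to 3.49 over batch A. The ratio of Mbp to Mag ran from 13.4 in RYGB animal 4 to 38.5 in RYGB animal 11, and that of Mbp to Cnp from 6.70 in RYGB animal 9 to 20.4 in BWM animal 2. In batch B, the ratio of Mbp to Mag ran from 18.8 to 38.9, with the highest value in PYY3-36 + liraglutide animal 10.

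**Figure D3:**
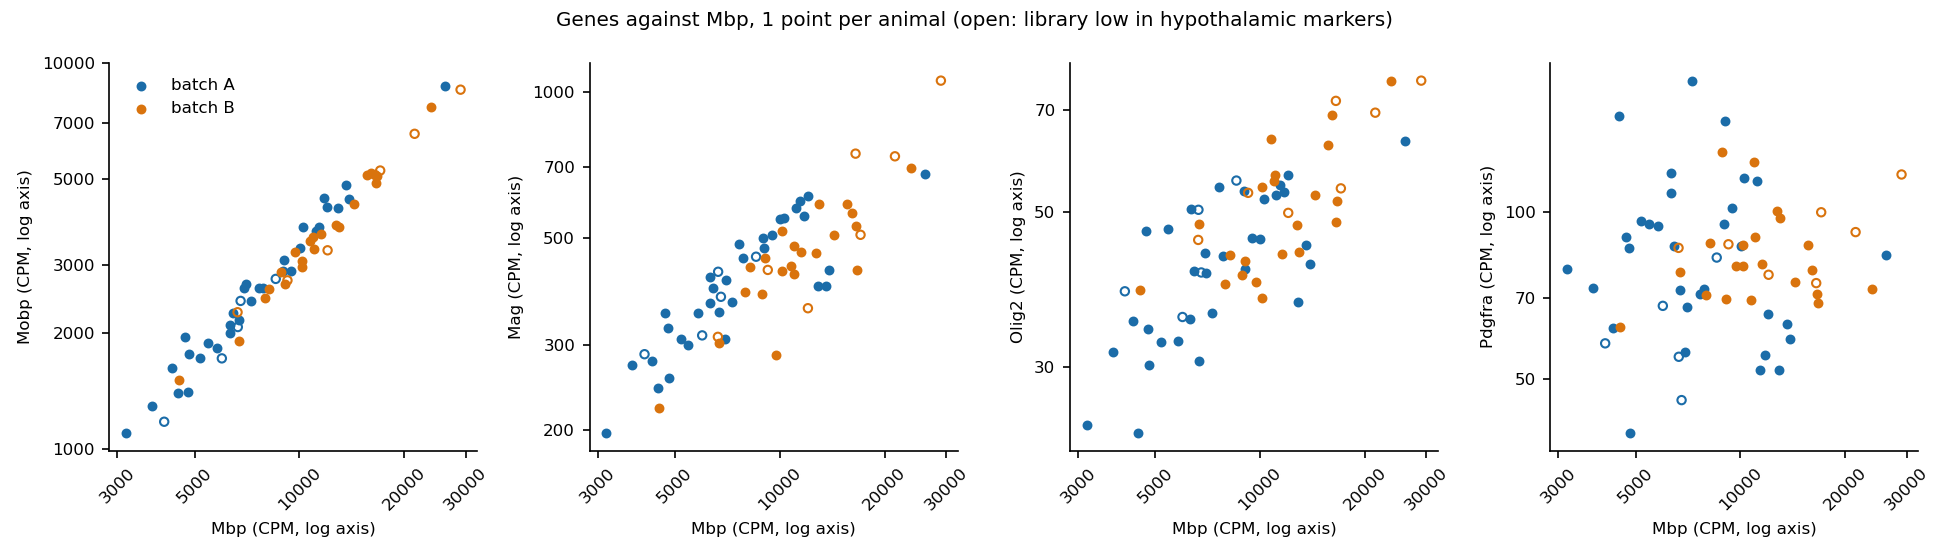
Levels of Mobp, Mag, Olig2 and Pdgfra against the level of Mbp in the same animal, all in TMM-scaled CPM on log axes, with batch A in blue, batch B in orange, each point an animal and open points the 12 libraries low in hypothalamic markers. Mobp lies close to a line (slope 1.01 in batch A), Mag and Olig2 rise with lower slopes (0.56 and 0.36), and Pdgfra scatters without following Mbp (r = -0.06).

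Over all 65 libraries, with the mean of each group and batch subtracted, the genes most like Mbp were Mobp (r = 0.99), Bcas1 (0.97), Pkp4 (0.96), Kif1c (0.96), Pllp (0.95), Ppp1r14a (0.95), LOC108353018 (0.95), Plekhb1 (0.94), Oxsr1 (0.94) and LOC100910236 (0.94). Of the other members, Mog ranked 13, Mag 55, Cnp 72, Mal 147 and Olig2 262, while Cspg4 ranked 4552 and Pdgfra 8552. The genes most like Pdgfra included Adgra2 (r = 0.87), Entpd1 (0.86), Egflam (0.86), Olfml2a (0.86), LOC103689954 (0.84), Ptprb (0.83), Cdh5 (0.83), LOC102551932 and Fam129a. This list held genes known from blood vessel cells, such as Cdh5 of endothelial junctions and Ptprb, and Cspg4 ranked 84 in it (r = 0.72).

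RYGB-treated animals were compared with sham-treated animals to see what the operation changed. For Mbp, the lowest, median and highest levels were 3178, 6725 and 26110 CPM after RYGB (n = 14) and 4514, 11397 and 23816 CPM after sham (n = 11). The groups overlapped over nearly their whole range, and the highest of all was RYGB animal 11. Compared with the sham median of the same batch, 8 of 11 RYGB-treated animals were lower in batch A (-0.13 ± 0.34) and 3 of 3 in batch B. With batch in the model, the difference in Mbp was -0.30 ± 0.26 (log2 fold change ± SE, adjusted p = 0.457, edgeR), and -0.56 without RYGB animal 11. The other myelin members differed by -0.36 ± 0.20 (Mog), -0.34 ± 0.26 (Mobp), -0.31 ± 0.17 (Cnp), -0.28 ± 0.18 (Mag) and -0.16 ± 0.19 (Mal). Olig2 was at 43.0 ± 11.7 CPM (SD, n = 14) after RYGB and at 55.8 ± 12.2 CPM (n = 11) after sham, a difference of -0.29 ± 0.13 (adjusted p = 0.131, edgeR). In the other direction, Pdgfra was at 89.5 ± 23.6 CPM after RYGB and 67.8 ± 16.01 CPM after sham (0.41 ± 0.17, adjusted p = 0.0883, edgeR), and Cspg4 differed by 0.17 ± 0.12. In this comparison 13% of all genes passed the adjusted p of 0.05 (6.52% higher and 6.53% lower after RYGB), and 0 of 9 members did, by edgeR or by DESeq2. At an unadjusted p of 0.05, 2 members passed in edgeR (Pdgfra and Olig2). The median difference of the members was -0.29, against -0.02 over all genes tested. Without the 12 libraries low in hypothalamic markers, 5.36% of all genes and 0 of 9 members passed by edgeR.

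Within the batches, Pdgfra was the member that passed the test between RYGB and sham in batch A. The 5 sham-treated animals had 71.2, 45.8, 52.0, 55.9 and 55.3 CPM, and the 11 RYGB-treated animals had a lowest value of 65.6, a median of 87.0 and a highest of 149 CPM. Each of the 11 RYGB-treated animals exceeded the median of the sham group, and the groups overlapped through sham animal 1. The sham mean of 56.1 ± 9.4 CPM was the lowest of all groups in batch A. Means were 76.0 CPM after saline (n = 3), 76.6 in lean animals, 85.9 in BWM animals and 99.5 on both hormones. After RYGB the mean was 93.0 ± 25.2 CPM, 1.66-fold that of sham. This difference was 0.73 ± 0.21 on the log2 scale (adjusted p = 0.0235 by edgeR and 0.00857 by DESeq2). Against saline-treated animals, over both batches, RYGB-treated animals differed by 0.17 ± 0.19 (DESeq2). Whether RYGB or low sham values gave the difference was not tested. In RYGB vs. sham of batch A, 8.64% of all genes passed and 4.35% were higher. The call was kept in 13 of 16 fits that left out a single animal and was lost without sham animal 2 (adjusted p = 0.0965), 3 (0.0561) or 5 (0.0553), with a log2 fold change between 0.64 and 0.84. It was also lost without the libraries low in hypothalamic markers, where 3.05% of all genes and 0 of 9 members passed by edgeR and Pdgfra differed by 0.68 (adjusted p = 0.0956). Cspg4 showed 0.37 ± 0.15 in batch A (adjusted p = 0.118), and the other 7 members between -0.28 (Mog) and -0.04 (Mal).

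In batch B, where 2.74% of all genes passed, 0 of 9 members did by edgeR or DESeq2, and 0 had an unadjusted p under 0.05 in edgeR. Without the libraries low in hypothalamic markers, 0% of all genes and 0 members passed by edgeR. The 3 RYGB-treated animals had 70.9, 69.7 and 90.1 CPM of Pdgfra and lay within the range of 62.1 to 100.0 CPM of the 6 sham-treated animals (-0.01 ± 0.26). For Mbp, the RYGB-treated animals had 7947, 9066 and 11002 CPM and the sham-treated animals a median of 16066 CPM, with sham animal 7 at 4514 CPM below all of them (-0.66 ± 0.46). Mobp differed by -0.74 ± 0.46, Mog by -0.52 ± 0.35 and Mal by -0.51 ± 0.33. The difference between the batches was tested itself, and 0 of 9 members passed, in a test that 0.0% of all genes passed. At an unadjusted p of 0.05, Pdgfra alone did (-0.74 ± 0.34 for B minus A, adjusted p = 0.413, edgeR), and DESeq2 also called 0.

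**Figure D4:**
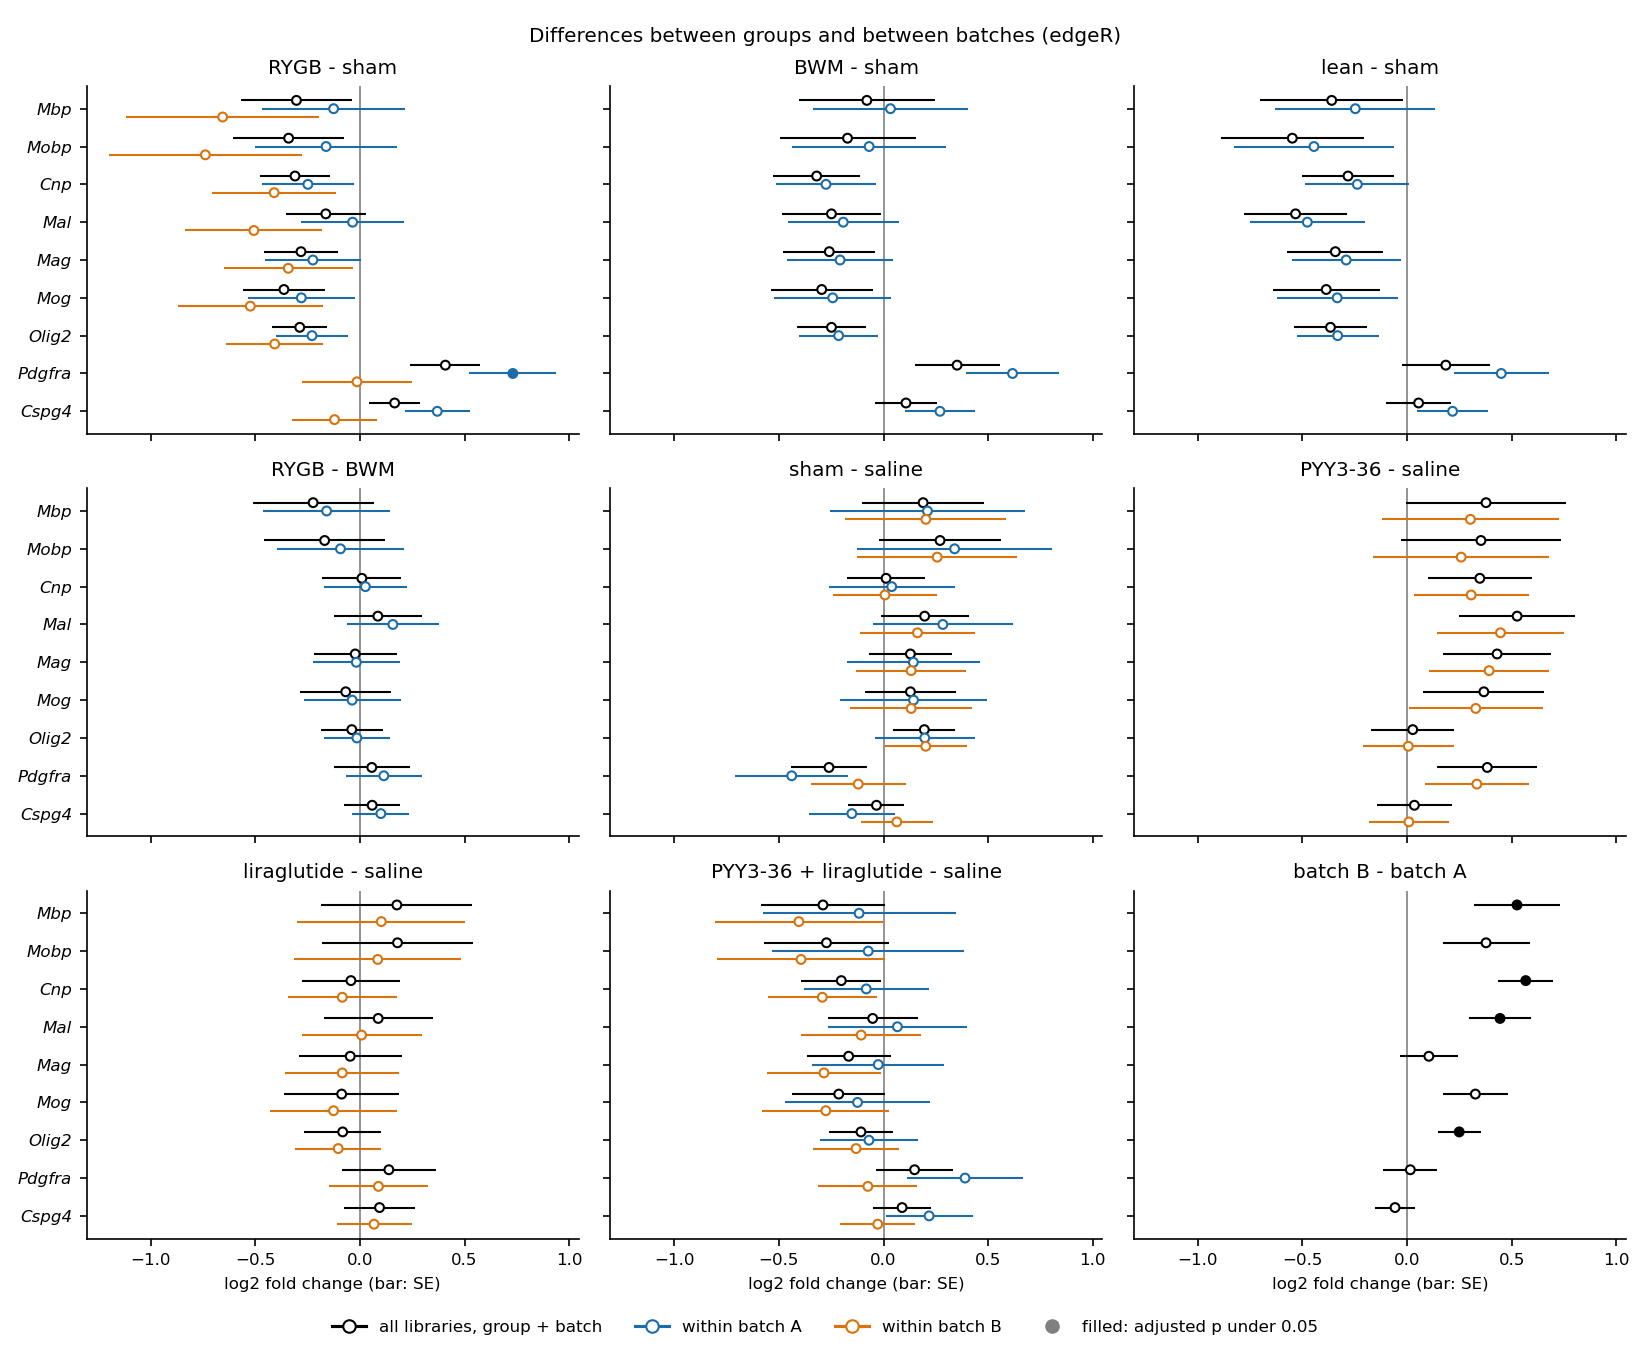
Log2 fold change with its SE for each of the 9 genes in the comparisons between groups and for batch B vs. batch A, in all libraries (black), within batch A (blue) and within batch B (orange), with values that passed the adjusted p of 0.05 filled. Between groups only Pdgfra in RYGB vs. sham of batch A is filled (0.73), and in the batch comparison Cnp, Mal, Mbp and Olig2 are filled.

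Markers of other cells that make Pdgfra or Cspg4 also differed between RYGB and sham in batch A. There, all 7 markers of meningeal fibroblasts (Col1a1, Col1a2, Col3a1, Dcn, Lum, Slc6a13 and Igf2) were higher after RYGB than after sham, with a median log2 fold change of 3.49. Their summed level was 101 to 3656 CPM after RYGB (median 560) and 63.0 to 109 CPM after sham (median 79.5). The sham median was the lowest of all groups in batch A. Medians were 104 CPM after saline (n = 3), 714 in lean animals, 725 on both hormones and 1175 in BWM animals. A higher median than after sham was therefore not limited to RYGB. RYGB animal 3 had the highest meningeal sum, the highest Pdgfra (149 CPM) and the highest Cspg4 (51.1 CPM) of its group in that batch. Of 6 pericyte markers, Vtn (1.31) and Rgs5 (0.91) were higher after RYGB than after sham. In batch B, 0 of the 7 meningeal markers changed, with a median of -0.74. No meningeal or pericyte marker was at 0 in any of the 65 libraries, and the part of meninges or pericytes in the level of Pdgfra was not tested. In bulk tissue, fewer cells of a type and less RNA per cell cannot be told apart for any of the genes described here.

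**Figure D5:**
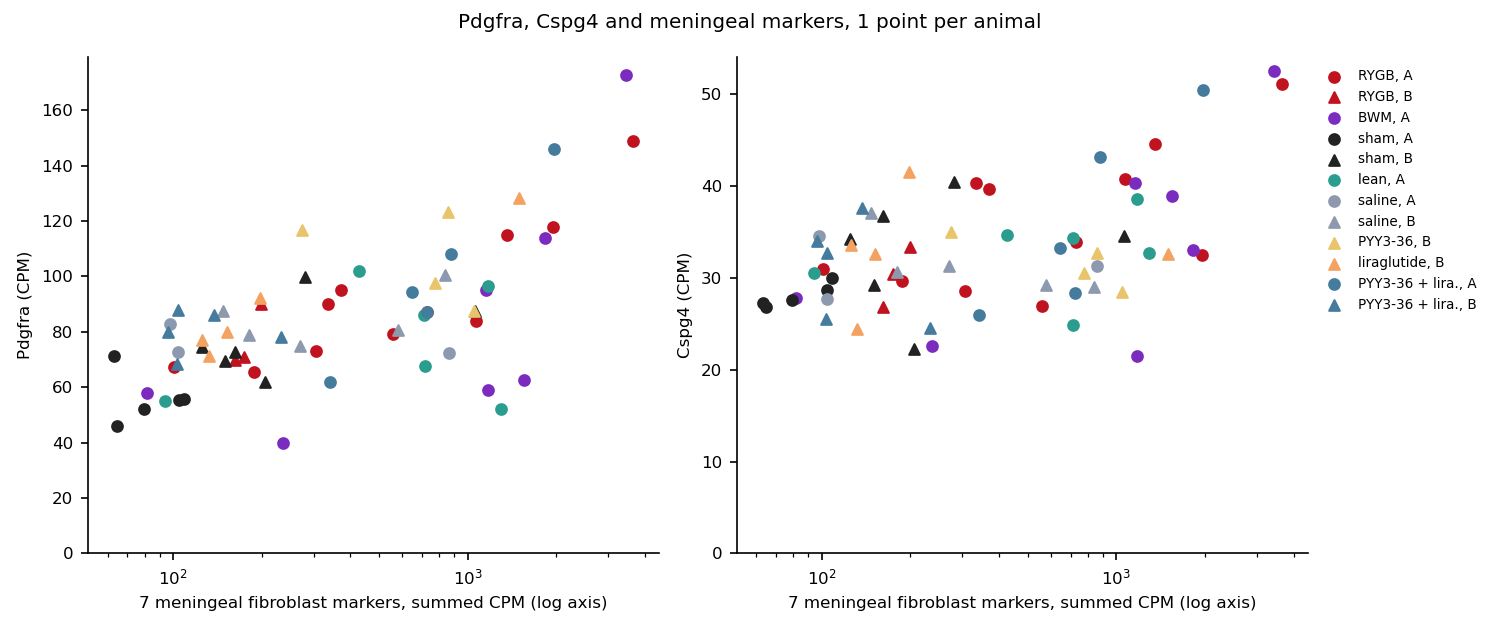
Levels of Pdgfra and Cspg4 in TMM-scaled CPM on linear axes against the summed level of 7 meningeal fibroblast markers on a log axis, with each point an animal, groups in colours, batch A as circles and batch B as triangles. In batch A the sham-treated animals sit at 63.0 to 109 CPM of meningeal markers and the RYGB-treated animals at 101 to 3656 CPM.

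Food restriction, by which the weight of BWM animals was matched to that of RYGB-treated animals, gave no member past the test. Mbp had a lowest, median and highest level of 4089, 8967 and 13890 CPM in the 7 BWM animals and differed by -0.08 ± 0.32 (adjusted p = 0.944, edgeR). BWM animal 1 alone lay outside the sham range of both batches together, below it. The sham-treated animals of batch A ran from 6776 to 11728.5 CPM. Below that range lay BWM animals 1 (4089 CPM) and 5 (4807 CPM), and above it animals 2 (13588 CPM) and 6 (13890 CPM). Cnp was at 387, 702 and 921 CPM, and differed by -0.32 ± 0.21, Mal by -0.25 ± 0.23 and Olig2 by -0.25 ± 0.16. Compared with the median of the sham-treated animals of batch A, 6 of 7 BWM animals were lower for Cnp, 5 for Mal and 6 for Olig2. Pdgfra was spread from 40.0 CPM in BWM animal 5 to 173 CPM in BWM animal 7 (0.35 ± 0.20). In this comparison 0.32% of all genes passed (0.311% higher in BWM animals) and 0 of 9 members did by edgeR or DESeq2, with 0 at an unadjusted p under 0.05 in edgeR. Without the 12 libraries low in hypothalamic markers, 0.391% of all genes and 0 members passed by edgeR. BWM animals were in batch A alone. Against the sham-treated animals of that batch, where 5.28% of all genes passed, Pdgfra differed by 0.62 ± 0.22 (adjusted p = 0.0886, edgeR) and 0 members passed, with 1 at an unadjusted p under 0.05. All 7 meningeal markers were higher than in these sham-treated animals too, with a median of 4.05.

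The medians of RYGB-treated animals of both batches and of BWM animals were 6725 and 8967 CPM for Mbp, 2354 and 2890 CPM for Mobp, 712 and 702 CPM for Cnp and 41.9 and 42.0 CPM for Olig2. In batch A, the batch of the BWM animals, the RYGB medians were 6303 CPM for Mbp, 2001 for Mobp, 655 for Cnp and 41.2 for Olig2. Within batch A, 0.197% of all genes and 0 of 9 members passed by edgeR. With batch in the model, the comparison of all libraries gave the following values. The log2 fold changes lay between -0.22 ± 0.29 (Mbp) and 0.09 ± 0.21 (Mal). Without RYGB animal 11, Mbp was at -0.52 and Mobp at -0.44. While 0.343% of all genes passed (0.334% lower after RYGB), 0 of 9 members did by edgeR or DESeq2, and 0 had an unadjusted p under 0.05 in edgeR. Without the 12 libraries low in hypothalamic markers, 0.555% of all genes and 0 members passed by edgeR.

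Lean animals, compared with obese sham-treated animals, had a lowest, median and highest Mbp level of 4772, 6319 and 12887 CPM (-0.36 ± 0.34). These levels lay within the sham range of both batches together. In batch A alone, sham-treated animals ran from 6776 to 11728.5 CPM, with the lean median below this range and the highest lean animal above it. Mal was at 239, 284 and 416 CPM, and all 6 lean animals lay below the median of 422 CPM of the sham-treated animals of batch A, the batch of the lean animals (-0.53 ± 0.25, adjusted p = 0.377, edgeR). Olig2 was at 32.6, 36.2 and 50.3 CPM, again with all 6 below the median of that batch, 53.3 CPM (-0.37 ± 0.17, adjusted p = 0.385, edgeR). The groups overlapped for every member. Mobp differed by -0.55 ± 0.34, Mog by -0.39 ± 0.26, Mag by -0.34 ± 0.23, Cnp by -0.28 ± 0.22 and Pdgfra by 0.18 ± 0.21. In this comparison 0.0% of all genes passed, and 0 members did by edgeR or DESeq2. The edgeR fit without the 12 libraries low in hypothalamic markers also called 0% of all genes and 0 members. Mal and Olig2 had an unadjusted p under 0.05 in edgeR. Against the sham-treated animals of batch A alone, where 0.0686% of all genes passed, 0 members did by edgeR or DESeq2 and 0 had an unadjusted p under 0.05 in edgeR, with Mal at -0.48 ± 0.27, Olig2 at -0.33 ± 0.20 and Pdgfra at 0.45 ± 0.23. The comparisons of RYGB-treated, BWM and lean animals with sham-treated animals share the sham libraries. Against saline-treated animals, a comparison added after the data had been seen, 0 of 9 members passed by edgeR or DESeq2 for RYGB-treated (0.00457% of all genes), BWM (0.0412%) and lean animals (0.0%), with 0 at an unadjusted p under 0.05 in edgeR.

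The hormone-treated animals were compared with saline-treated animals. Saline-treated animals had 6687, 7844 and 8549 CPM of Mbp in batch A and 9238, 11544, 16080, 12722 and 14351 CPM in batch B. The PYY3-36-treated animals had 10148, 29025, 12949 and 10956 CPM, so that 3 of 4 lay within the saline range of batch B and animal 2 far above it. Mbp differed by 0.38 ± 0.38 (adjusted p = 0.760, edgeR), Mal by 0.53 ± 0.28, Mag by 0.43 ± 0.26 and Mog by 0.37 ± 0.29. Pdgfra was at 87.4, 117, 97.7 and 123 CPM, above the saline median in all 4 (0.38 ± 0.24). All 9 differences were positive with a median of 0.37, but without PYY3-36 animal 2 only 3 were positive and the median was -0.03. That library was among those low in hypothalamic markers (46.3 CPM), and without the 12 libraries the median was -0.04. Of all genes 0.0% passed, and 0 of 9 members did by edgeR or DESeq2, with 0 at an unadjusted p under 0.05 in edgeR.

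Liraglutide-treated animals had 8863, 16569, 12046, 21418 and 9726 CPM of Mbp, on both sides of the saline-treated animals of their batch. The differences of the 9 members lay between -0.09 ± 0.27 (Mog) and 0.18 ± 0.36 (Mbp and Mobp). Animals given both hormones had 9023, 6324, 5814, 10018 and 4301 CPM of Mbp in batch A and 10146, 8193, 6641, 6685 and 16650 CPM in batch B. In batch B, 4 of 5 of these lay below the saline median of 12722 CPM, and animal 10 lay above all saline-treated animals. Mbp differed by -0.29 ± 0.30, Mobp by -0.27 ± 0.30 and Mog by -0.21 ± 0.22, with a median of -0.17 over the members. For liraglutide 0.0% and for the combination 0.00457% of all genes passed, and in both comparisons 0 of 9 members passed by edgeR or DESeq2, with 0 at an unadjusted p under 0.05 in edgeR. Against the saline-treated animals of batch B alone, 0 of 9 members passed by edgeR or DESeq2 for PYY3-36 (0.00457% of all genes), liraglutide (0.00914%), the combination (0.0137%) or sham operation (0.0229%), with 0 at an unadjusted p under 0.05 in edgeR. Sham- and saline-treated animals, the pair of control groups, differed by between -0.26 ± 0.18 (Pdgfra) and 0.27 ± 0.29 (Mobp). Here 0.0137% of all genes passed and 0 members did by edgeR or DESeq2, again with 0 at an unadjusted p under 0.05 in edgeR. The difference between batches in sham vs. saline and in PYY3-36 + liraglutide vs. saline was called for 0 of 9 members by edgeR and DESeq2, with 0 at an unadjusted p under 0.05 in edgeR, where 0.00457% and 0.0% of all genes passed.

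The batches were compared as well, and 4 of 9 members passed where 40.7% of all genes did. In batch A the median Mbp level of saline-treated animals was 7844 CPM and in batch B 12722 CPM. Sham-treated animals had medians of 7643 and 16066 CPM, RYGB-treated animals 6303 and 9066 CPM, and PYY3-36 + liraglutide-treated animals 6324 and 8193 CPM. For Cnp, the medians were 852 and 1199 CPM after saline, 904 and 1404 CPM after sham, 655 and 987 CPM after RYGB and 821 and 1118 CPM after both hormones. All 4 groups present in both batches thus had a higher median of both genes in batch B. In the model of group and batch, 4 of 9 members were higher in batch B, in a comparison in which 40.7% of all genes passed with 19.3% higher and 21.4% lower in batch B. The batch difference in this model comes from the 4 groups present in both batches. Cnp rose by 0.57 ± 0.13 (adjusted p = 0.000397), Mbp by 0.53 ± 0.21 (adjusted p = 0.0367), Mal by 0.44 ± 0.15 (adjusted p = 0.014) and Olig2 by 0.25 ± 0.10 (adjusted p = 0.048) in edgeR. Mobp (0.38 ± 0.21), Mog (0.33 ± 0.15), Mag (0.10 ± 0.14), Pdgfra (0.02 ± 0.13) and Cspg4 (-0.06 ± 0.10) did not pass. DESeq2 called 3, without Olig2. Leaving out single animals, Cnp and Mal were called in 65 of 65 fits, Mbp in 58 and Olig2 in 40. Fits without an animal of a group in 1 batch alone are a weak check, since such animals do not inform the batch difference. Without the 12 libraries low in hypothalamic markers, 2 were called, Cnp and Mal, with Mbp at an adjusted p of 0.0761 and Olig2 at 0.059. In that edgeR fit 40% of all genes passed. The ratio of Cnp to Mag was 1.83 in the median of batch A (1.39 to 2.40) and 2.55 in that of batch B (2.17 to 3.15). Experimental period, library fragment length and any other difference between the batches cannot be told apart.

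Further genes of the lineage were set beside the members, with 44 of 45 listed genes tested (Lhfpl3 was not matched). They were 12 of myelin structure and adhesion, 9 of myelin lipids and metabolism, 8 transcription factors, 6 of differentiating oligodendrocytes and 9 of precursor cells. Between batches, 19 of the 44 were higher in batch B and 2 lower by edgeR, against 19.3% and 21.4% of all genes. Without the 12 libraries, 16 were higher and 2 lower, in a fit in which 40% of all genes passed in either direction. Among those of myelin, 8 of 12 structural genes and 7 of 9 lipid and metabolic genes were higher, such as Ugt8, which makes the galactolipid of myelin (0.79 ± 0.16), Cd9, a tetraspanin (0.64 ± 0.14), Car2, a carbonic anhydrase (0.60 ± 0.13), and Omg, a surface glycoprotein (0.46 ± 0.08). The lower genes were Pcdh15 (-1.25 ± 0.18), a cadherin enriched in precursors, and Hapln2 (-0.43 ± 0.17), a link protein of the nodal matrix. In RYGB- vs. sham-treated animals, 3 of 44 were higher and 1 lower by both edgeR and DESeq2, where 13% of all genes were called, 6.52% higher and 6.53% lower. Sox6, a transcription factor of precursor cells that some neurons also use, rose by 1.02 ± 0.20 (adjusted p = 0.0016), Pcdh15 by 0.88 ± 0.23 and Itpr2, a calcium channel of newly formed oligodendrocytes that astrocytes also make, by 0.50 ± 0.15. Car2 fell by 0.49 ± 0.16. Without the 12 libraries low in hypothalamic markers, Sox6 (adjusted p = 0.0181) and Pcdh15 (adjusted p = 0.0488) were still called by edgeR, while Itpr2 (0.52 ± 0.16, adjusted p = 0.0508) and Car2 (-0.40 ± 0.17, adjusted p = 0.149) were not. In that fit 5.36% of all genes passed. Against saline-treated animals, 0 of 44 were called for RYGB by edgeR or DESeq2, with 1 at an unadjusted p under 0.05 in edgeR, and Sox6 differed by 0.21 ± 0.21. The median over the 44 genes was -0.19, and 0 of the 12 structural genes passed, which had a median of -0.28.

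In lean vs. sham, the 3 hormone treatments vs. saline and sham vs. saline, 0 of 44 passed by edgeR. At an unadjusted p under 0.05 there were 5, 4 and 2 in lean vs. sham, sham vs. saline and PYY3-36 vs. saline and 0 in the other hormone comparisons, and DESeq2 called 1, Sox6 in lean vs. sham. The smallest p values there were those of Sox6 in lean vs. sham (1.02 ± 0.25, adjusted p = 0.151), in sham vs. saline (-0.81 ± 0.22, adjusted p = 0.179) and in liraglutide vs. saline (0.36 ± 0.27, adjusted p of 1), of Vcan in PYY3-36 vs. saline (0.41 ± 0.19, adjusted p = 0.652) and of Tcf7l2 in the combination vs. saline (-0.93 ± 0.48, adjusted p of 1). Schwann cells make Mbp, Mag, Mal and Cnp in peripheral nerve. Of their markers, Prx, which encodes the myelin protein periaxin, had a median of 2.27 CPM and a highest level of 17.7 CPM, and Ncmap was at 0 in 44 libraries. Prx differed by 1.89 ± 0.50 in PYY3-36 vs. saline (adjusted p = 0.535, edgeR). The part of peripheral nerve in the levels of the members was not tested.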

How the data were processed

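Whole hypothalamus was sequenced in 65 rats, and group and batch were taken from the labels. The authors trimmed single-end reads of stranded poly-A libraries with cutadapt (1.16 in the submitters' processing notes, the methods list further versions), mapped them with STAR 2.7.2b to Rnor_6.0 and counted exon reads with featureCounts 1.6.4, in fractions where reads had several places or genes, so the deposited values are estimated counts (30.3% of the nonzero values were not whole at a tolerance of 1e-06). Depth ran from 20041010 to 36539941 counts per library.

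Counts were rounded, filtered (filterByExpr, minimum count 10, total 15), scaled by TMM and fitted with edgeR 4.0.16 in R 4.3.3 (robust quasi-likelihood, group and batch, all 65 libraries). The p values were adjusted by Benjamini-Hochberg over 21871 genes, with a threshold of 0.05. A further model with 12 means of group and batch gave within-batch values. DESeq2 1.42.0 was an alternative. Fits that left out an animal kept the dispersion trend of the complete fit. The edgeR step was tested on simulated data. Correlations used log2 of CPM with a pseudocount of 1, Python 3.11.15 and scipy 1.17.1. Errors are SD for levels and SE for fold changes. Each library was a separate animal, and no pair of libraries of a group was alike within sampling noise.

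The 9 members and all lists were chosen with earlier results of these data known. Named are all members, up to 5 called lineage genes a comparison (otherwise those of smallest p), and the 10 genes most like Mbp and Pdgfra. Some results under this rule are not reported here.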

Additional observations from a re-analysis of the deposited data

Results flagged for a closer look

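Each gene was checked in every group of 4 to 10 animals of a batch for a lowest or highest animal that stood far from the others. Of 81 such groups 5 held such an animal, where chance gives about 1 in 20. In PYY3-36 animal 2, Mbp was at 29025 CPM, Mobp at 8529 CPM and Mog at 636 CPM, each far above the other 3 animals of the group. The library of this animal was 1 of the 12 low in hypothalamic markers. In lean animal 3, Cnp was at 1020 CPM, above the other 5 lean animals. In saline animal 4, also among the 12 libraries, Cspg4 was at 37.1 CPM, the highest of the 5 saline-treated animals of batch B.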

How the results depend on the processing

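The alternatives were DESeq2, RLE scaling, no filter, counts not rounded, no batch term, only the libraries of the compared groups, single batches, single animals left out and, chosen after seeing the data, saline-treated controls for the RYGB, BWM and lean groups and the fit without the 12 libraries low in hypothalamic markers. Of 3466 alternative values of members, 3399 kept their side of the threshold, 44 lost and 12 gained the call, and 11 reversed. Among the 3399 were 194 that changed sign, all of differences smaller than their own SE and not called, which were not counted as reversed. Without a batch term, 3 members were called in RYGB vs. sham (Cnp, Olig2 and Pdgfra), 1 in BWM vs. sham (Cnp) and 2 in lean vs. sham (Mal and Olig2). These fits leave differences between batches in the comparisons, since the groups were spread unequally over the batches. The share of all genes called in them is not given here, so these counts are no result about the members. In RYGB vs. sham, 1 was called with only these groups and 1 within batch A (Pdgfra both times), and 0 to 1 with single animals left out (Olig2 without RYGB animal 11). Between batches, 2 were called without the filter and 2 without the 12 libraries, and 2 to 6 with single animals left out (2 each without PYY3-36 + liraglutide animals 5 and 10, saline animal 1 or sham animals 2, 4 and 9). The reversed values in RYGB vs. sham were Pdgfra at -0.014 and Cspg4 at -0.12 within batch B, and Cspg4 at -0.022 there without the 12 libraries. In PYY3-36 vs. saline, Mog ranged from -0.0609 to 0.534 and Cnp from -0.0289 to 0.497 with single animals left out, the lowest without PYY3-36 animal 2 and the highest without animal 1. Mog was at -0.084 and Cnp at -0.042 without the 12 libraries, and Mog at -0.19, Cnp at -0.12 and Mag at -0.0018 within batch B without them. The causes were not tested. Deviations of same-numbered animals had a median r of 0.03 over 171 pairs, 70 of them over 0.1, against -0.02 for other pairs. Whether single pairs were linked was not tested. With the replicate number as a block, 0 members were called between batches, with Mobp at -0.073, and 0 in each comparison between groups. In each group present in both batches, the lower replicate numbers were those of batch A. The block and the batch therefore overlap in part, which limits this fit as a check of the batch difference. Depth, at 20041010 counts or more, gave every member at least 21.5 CPM in every library.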
